A study of Mus musculus with 6 samples.

Results

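The septins are a family of GTP-binding cytoskeletal proteins, and 10 of their genes, septins 1, 2 and 4 to 11, are described here out of 34245 genes in the deposited expression table. They were found as symbols that spreadsheet software had turned into dates, and each was checked with its Ensembl identifier and its gene description. Of the 26 symbols in the table that had become dates, 13 belonged to septins, and the other 3 septins, Sept3, Sept12 and Sept14, were not part of the choice and are given only beside the family.

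Gene expression was measured by RNA-seq in 3 independent peripheral T-cell lymphomas (PTCL) that arose in Dnmt3b+/- mice of the FVB strain and were taken from a lymph node. These mice carry a conventional knockout allele of Dnmt3b, a DNA methyltransferase, in every cell of the body, and their ages are not given in the sources used here. Each tumor is a single bulk library from lymph node tissue, so other cells of the node may contribute RNA. The whole-genome bisulfite sequencing of 2 Dnmt3b+/- PTCL and 1 Dnmt3a-/- PTCL, and any control T cells, were not analysed here, so all septin values describe the tumors alone, with no contrast and no test. Expression is given as FPKM, the fragments on a gene per kilobase of its exons and per 1000000 fragments of the library. Dnmt3b itself was at 0.975, 1.55 and 1.25 FPKM in tumors 1, 2 and 3, values over all exons, which cannot tell its intact copy from its knockout copy.

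Septins bind each other in rod-shaped complexes that join end to end into filaments, rings and gauzes under the plasma membrane, where they meet actin, myosin and microtubules. The family falls into structural groups named after SEPT2, SEPT3, SEPT6 and SEPT7, and a complex takes its subunits from several groups, with SEPT7 as the single member of its own group and SEPT9 at the core of the longer complexes. In T cells a septin cortex stiffens the cell body and supports crawling, and septins at the cleavage furrow take part in cytokinesis.

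The septin family was expressed in every tumor, and Sept1 led it. Of the 10 septins, 8 were above 0.2 FPKM in every tumor, a level that 36.7% of all genes in the table reached. The 2 that did not were Sept4 and Sept5. Summed over the 10 genes, septin expression was 233.1, 245.0 and 222.3 FPKM in tumors 1, 2 and 3, with a mean of 233 ± 11.3 (SD, n = 3). The highest sum was 1.10 times the lowest, and this ratio was 1.24 with FPKM rescaled to a common sum, 1.18 with median-of-ratios factors, which center the typical expressed gene, and 1.37 when scaled to the CD3 genes Cd3d, Cd3e and Cd3g, with tumor 1 as the highest in the first and the last of these 3. The make-up of the sum, which no scaling of a library can move, differed too. Sept1, Sept6 and Sept9 together made up 75.7%, 92.1% and 89.0% of it in tumors 1, 2 and 3. The other 7 septins summed to 56.6 FPKM in tumor 1 and only to 19.3 and 24.4 FPKM in tumors 2 and 3.

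**Figure D1:**
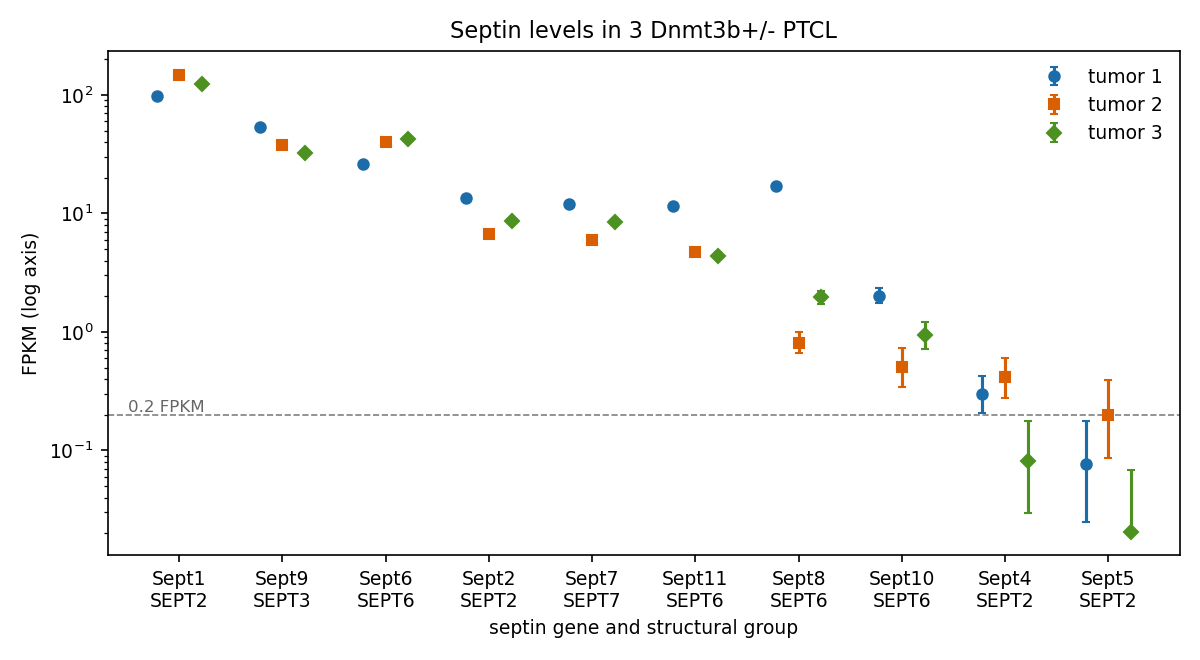
FPKM of the 10 septins in each tumor on a log axis, ordered by their mean, with bars for exact 95% Poisson intervals where reads were recovered and the structural group under each name. Sept1 is highest in every tumor, Sept8 is spread most among the 8 genes above the dashed line at 0.2 FPKM in every tumor, and the lowest Sept5 point, tumor 3, is the value the table gives to a gene without a read, where the bar is no such interval and ends at the limit of 3 reads.

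The SEPT2 group, which holds Sept1, Sept2, Sept4 and Sept5, took the largest share of the family. Its share of the summed septin FPKM was 47.7%, 63.1% and 59.4% in tumors 1, 2 and 3, with a mean of 56.8% ± 8.05 (SD, n = 3). Nearly all of this was Sept1, a septin known from lymphoid cells, encoded on the minus strand at chr7:127214447-127233130 of mm10. Sept1 was at 97.4, 147 and 123 FPKM in tumors 1, 2 and 3, with a mean of 123 ± 25.0 (SD, n = 3). Its reads, which the FPKM and the length of the exons give, numbered 8270, 7727 and 7086, so that counting error was small and the exact 95% Poisson intervals did not overlap between tumors. Such intervals cover counting error only. Tumor 1 had the lowest and tumor 2 the highest Sept1 level, with a ratio of 1.51 between them. When the libraries were scaled to the CD3 genes, tumor 3 became the lowest and the ratio fell to 1.19. By its FPKM, Sept1 had the rank 247, 189 and 216 among all 34245 genes in tumors 1, 2 and 3.

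Sept2, a septin that binds nonmuscle myosin and is found at the cleavage furrow and at the base of cilia, was the second of its group and far below Sept1. It was at 13.4, 6.65 and 8.58 FPKM in tumors 1, 2 and 3, on 3292, 1007 and 1422 reads, with a mean of 9.55 ± 3.49 (SD, n = 3). Tumor 1 was thus 2.02 times tumor 2 and 1.56 times tumor 3. Sept4, known from the sperm annulus and for a splice form that promotes apoptosis, was at 0.301, 0.414 and 0.0811 FPKM in tumors 1, 2 and 3, on 33, 28 and 6 reads. Its Poisson intervals overlapped between tumor 1 (0.207 to 0.423) and tumor 2 (0.275 to 0.599), and both lay above that of tumor 3 (0.0298 to 0.176). Sept5, best known for regulating vesicle release in neurons and platelets, was the lowest of the 10 septins. Its values were 0.0765, 0.198 and 0.0204 FPKM in tumors 1, 2 and 3. The annotated exon length of Sept5 did not give whole reads, and with the value of tumor 3 read as that of a gene without a read, a length of 2127 bases gave 5, 8 and 0 reads in tumors 1, 2 and 3. A count of 0 allows up to 3 reads, or 0.0679 FPKM in tumor 3, and the Poisson interval of tumor 2 ran from 0.0856 to 0.391 FPKM. That of tumor 1, 0.0248 to 0.179 FPKM, overlapped both.

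Sept7, the only member of its group and a subunit that septin complexes share, moved with Sept2. Sept7 lies on the plus strand at chr9:25252439-25308571 and was at 12.1, 5.98 and 8.41 FPKM in tumors 1, 2 and 3, on 4317, 1319 and 2031 reads, with a mean of 8.82 ± 3.07 (SD, n = 3). The ratio of Sept2 to Sept7 FPKM was 1.11, 1.11 and 1.02 in tumors 1, 2 and 3. In tumors 2 and 3 the Poisson intervals of the 2 genes overlapped, and in tumor 1 they did not. No other septin kept so steady a ratio to Sept7: for Sept1 it was 8.06, 24.7 and 14.7 in tumors 1, 2 and 3. Genes outside the family ran the same way, such as Rhoa at 36.0, 18.2 and 28.2 FPKM in tumors 1, 2 and 3. How many of all genes kept so steady a ratio to Sept7 was not counted. Ratios between genes of 1 library do not depend on how the libraries are scaled, but FPKM compares RNA per exon length, and says nothing of protein. The SEPT7 group was the smallest of the 4, with 5.18%, 2.44% and 3.78% of the summed septin FPKM in tumors 1, 2 and 3, on average 3.80% ± 1.37 (SD, n = 3).

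The 250 bases before a RefSeq start of Sept2 and of Sept7 are shown because these septins moved together. The sequences are on GRCm38.p6, the build also called mm10, read 5′ to 3′ on the strand of the gene, with each CG in capitals. RefSeq lists 2 starts for each of these genes, and the first is used. By the gene coordinates of the expression table, the Sept7 window lies wholly before the gene, with its last base at -449 from the gene start. The Sept2 window runs 29 bases into its gene.
Sept2, chr1:93478743-93478992, plus strand: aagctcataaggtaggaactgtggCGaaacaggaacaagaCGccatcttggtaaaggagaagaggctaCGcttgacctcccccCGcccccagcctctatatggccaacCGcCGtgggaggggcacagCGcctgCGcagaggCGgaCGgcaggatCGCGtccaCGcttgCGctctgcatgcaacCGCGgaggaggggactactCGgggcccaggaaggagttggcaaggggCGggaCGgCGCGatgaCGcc
Sept7, chr9:25251741-25251990, plus strand: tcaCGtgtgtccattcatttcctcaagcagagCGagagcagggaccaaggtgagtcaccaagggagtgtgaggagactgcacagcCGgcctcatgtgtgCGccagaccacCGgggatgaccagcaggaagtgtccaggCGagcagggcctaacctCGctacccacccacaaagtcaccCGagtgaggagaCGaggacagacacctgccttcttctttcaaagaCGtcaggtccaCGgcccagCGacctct
These windows held 22 and 12 CG, and those of the second starts 31 and 36, where the median of all 32851 windows before RefSeq starts was 6. The window of the second Sept7 start lies inside the gene.

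Sept9, which is the SEPT3 group's only member among these 10 genes, was the second most abundant septin by its mean. Its gene spans chr11:117199661-117362325 on the plus strand, and it is known as a fusion partner of KMT2A in leukemia. Sept9 was at 53.1, 37.9 and 32.3 FPKM in tumors 1, 2 and 3, with a mean of 41.1 ± 10.8 (SD, n = 3). Behind these values were 12350, 5441 and 5082 reads, the first being the most behind any septin value. Tumor 1 was the highest by a ratio of 1.64 over tumor 3, a ratio of 2.15 when scaled to the CD3 genes. As the SEPT3 group, Sept9 took 22.8%, 15.5% and 14.5% of the summed septin FPKM in tumors 1, 2 and 3, on average 17.6% ± 4.52 (SD, n = 3).

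The SEPT6 group, with Sept6, Sept8, Sept10 and Sept11, held Sept8, the septin with the largest ratio between tumors. As a sum it was at 56.7, 46.4 and 49.4 FPKM in tumors 1, 2 and 3, or 24.3%, 19.0% and 22.2% of all septin FPKM, with a mean of 21.8% ± 2.70 (SD, n = 3). Within the group, however, the balance between members differed from tumor to tumor. Sept6, an X-linked septin encoded on the minus strand at chrX:36911326-36991794, was at 26.0, 40.4 and 42.1 FPKM in tumors 1, 2 and 3, with a mean of 36.2 ± 8.85 (SD, n = 3). Tumor 1 thus had the lowest Sept6 level under every scaling tried. The order of tumors 2 and 3 was reversed when the FPKM were rescaled to a common sum, with 195 of 1000000 in tumor 2 and 188 in tumor 3.

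Sept8, Sept10 and Sept11 ran the opposite way, with tumor 1 as the highest under every scaling tried. Sept8, on the plus strand at chr11:53519257-53549565 and known in neurons as a partner of a synaptic vesicle protein, was at 17.1, 0.814 and 1.96 FPKM in tumors 1, 2 and 3. These values rest on 3199, 94 and 248 reads, and their Poisson intervals were 16.5 to 17.7, 0.658 to 0.996 and 1.72 to 2.22 FPKM. Tumor 1 was thus 21.01 times tumor 2 and 8.72 times tumor 3, and the mean of 6.63 ± 9.09 (SD, n = 3) describes none of the tumors, falling to 1.39 without tumor 1. Without tumor 1, the higher of the remaining tumors was 2.41 times the lower, and without tumor 2 the ratio was 8.72. Sept11, which forms complexes with Sept7 and Sept9, was at 11.6, 4.75 and 4.41 FPKM in tumors 1, 2 and 3, with overlapping Poisson intervals in tumors 2 and 3 and a mean of 6.91 ± 4.04 (SD, n = 3), or 4.58 without tumor 1. Sept10, the least abundant of the group, was at 2.02, 0.509 and 0.944 FPKM in tumors 1, 2 and 3, on 193, 30 and 61 reads, with a mean of 1.16 ± 0.778 (SD, n = 3). Without tumor 1 its mean was 0.726, below the 1 FPKM asked of genes whose tumors are compared further below. Within the group, Sept6 was above Sept8 in every tumor, by 26.0 to 17.1 FPKM in tumor 1.

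Of these 3 septins, which moved in the same direction, only Sept11 has a window that lies before its gene as the expression table gives it, and it is printed for that reason. Both windows of Sept8 and the window of Sept10 lie inside their genes. Capitals mark each CG, the dinucleotide that DNA methyltransferases act on. DNA methylation of these windows was not analysed here.
Sept11, chr5:93093166-93093415, plus strand: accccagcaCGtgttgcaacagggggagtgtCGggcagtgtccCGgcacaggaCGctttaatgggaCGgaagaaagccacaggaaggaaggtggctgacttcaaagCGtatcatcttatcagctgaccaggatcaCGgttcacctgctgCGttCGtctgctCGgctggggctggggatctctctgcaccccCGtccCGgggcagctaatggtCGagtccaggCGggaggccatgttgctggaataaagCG
The Sept11 window held 15 CG and the Sept10 window 26. The first Sept8 window held 11 CG, a number reached by 35.6% of all windows, and the second held 36, reached by 2.58%. RefSeq windows were found for 7 of the 10 septins, 16 in all, some of which overlap, and not for Sept1, Sept5 and Sept6. Of the 16, 4 lie before the gene, 2 run across its start and 10 lie inside it. Each of the 16 held at least 1 CG, from 1 in a Sept4 window to 36, as did 92.1% of all windows. The letters GGGCGG, the core of a GC box, which hold a CG themselves, were found on either strand in 9 of the 16 septin windows and in 32.7% of all windows. The palindrome CACGTG, an E-box that also holds a CG, was in 2 of the 16, those of Sept11 and the first start of Sept7, and in 6.02% of all windows. Neither CCGGAA, the core of ETS sites, nor TATAAA was found on either strand of any septin window, where 12.0% and 12.4% of all windows held them. These matches describe letters in a window and no binding.

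Between tumors, the septins were set beside all genes. Of the 10 septins, 8 had a mean of at least 1 FPKM, and 6 of these 8 were highest in tumor 1 under every scaling tried, namely Sept2, Sept7, Sept8, Sept9, Sept10 and Sept11. Among all 11197 genes with such a mean, 50.6% were highest in tumor 1, a share that ran from 36.9% with median-of-ratios factors to 70.9% when scaled to the CD3 genes. Sept1 was the septin highest in tumor 2, as were 33.7% of these genes, and Sept6 the septin highest in tumor 3, as were 15.7%, apart from the rescaling to a common sum, under which Sept6 was highest in tumor 2. A highest tumor at least 2 times the lowest was found for 5 of the 8 septins, where 34.4% of the genes had one. These 5 were Sept2, Sept7, Sept8, Sept10 and Sept11, all highest in tumor 1, a pattern that 18.1% of the genes shared. Sept2 and Sept7 passed that fold narrowly, at 2.02 each. They fell below it, to 1.79 each, with median-of-ratios factors, which left 3 of 8 septins beside 32.3% of the genes. When scaled to the CD3 genes, 6 of 8 septins passed, beside 47.4% of the genes. As deposited and without tumor 1, only Sept8 passed, 1 of 7 septins beside 15.8% of the genes. Without tumor 2 there were 3 of 8 beside 17.6%. The median ratio of the highest to the lowest tumor was 2.02 for the 8 septins and 1.68 for all genes with a mean of at least 1 FPKM. A ratio at least that of Sept8 was found for 362 genes, or 3.23%, and 181 of them were highest in tumor 1.

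**Figure D2:**
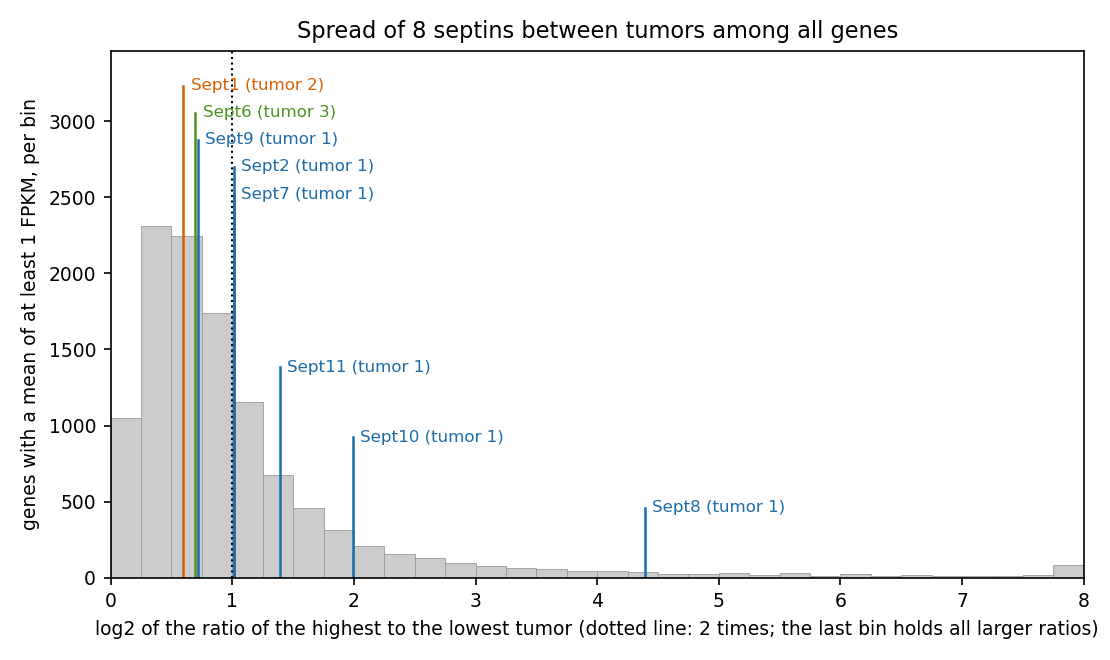
Number of genes with a mean of at least 1 FPKM by the log2 of the ratio of their highest to their lowest tumor, with the 8 septins of such a mean as vertical lines whose color and label give the highest tumor; line heights carry no value. Sept1, Sept6 and Sept9 lie left of the dotted line at 2 times, and Sept8 lies far to the right, at a ratio of 21.01.

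The order of the septins by mean FPKM was Sept1, Sept9, Sept6, Sept2, Sept7, Sept11, Sept8, Sept10, Sept4 and Sept5. The ranges over the 3 tumors separated Sept1 from Sept9, Sept6 from Sept2 and Sept10 from Sept4, while all other neighbors in this order overlapped. Sept9 and Sept6 changed places, with Sept9 at 2.04, 0.939 and 0.768 times Sept6 in tumors 1, 2 and 3. Sept8 was the fourth most abundant septin in tumor 1 and the seventh in tumors 2 and 3. Apart from these moves, the order of the other septins among themselves was the same in the 3 tumors.

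**Figure D3:**
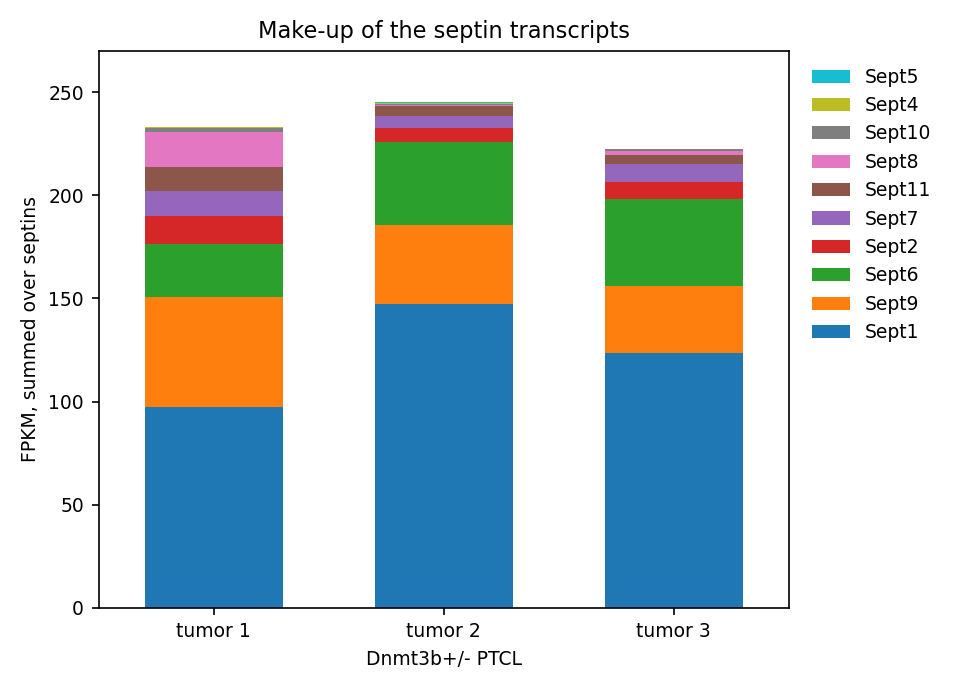
FPKM of the 10 septins stacked for each tumor, so that the height of a bar is their sum. The bars reach 233.1, 245.0 and 222.3 FPKM, and Sept1 and Sept6 take a smaller part of the bar in tumor 1 than in tumors 2 and 3, Sept9 and most of the less abundant septins a larger part.

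Markers of cell types were set beside these septin levels. The T-cell list had all 8 genes above 0.2 FPKM in every tumor and summed to 1159, 889 and 1274 FPKM in tumors 1, 2 and 3, led by Cd8b1 at 435, 166 and 443, in keeping with the label of a T-cell lymphoma. Here and below, a list is led by the gene with its highest mean. Of the 8, 4 were highest in tumor 2, and Cd8a, Cd8b1 and Cd247 were lowest there. The T-cell sum was highest in tumor 1 with FPKM rescaled to a common sum or scaled to the CD3 genes. In bulk tumors, fewer cells of a type and less RNA per cell cannot be told apart. Like the 6 septins highest in tumor 1, 5 of 6 macrophage genes were highest there, and this list, with all 6 genes above 0.2 FPKM in every tumor, summed to 267, 90.5 and 33.4 FPKM in tumors 1, 2 and 3. By its mean, its most abundant gene was Lyz2 at 215, 33.1 and 20.3 FPKM, though in tumor 2 Cd68 was higher, at 51.2. All 3 erythroid genes were above 0.2 FPKM in every tumor and highest in tumor 1, with sums of 131, 27.1 and 3.43 FPKM, led by Hba-a1 at 92.3, 19.6 and 1.90. Both genes of dividing cells, Mki67 and Top2a, were also highest there, with sums of 81.4, 47.7 and 23.8 FPKM, of which Mki67 had 38.7, 30.4 and 12.0. Cd4, the only gene of the CD4 list, was at 28.4, 4.28 and 8.22 FPKM in tumors 1, 2 and 3, which is the order of tumors that Sept2, Sept7, Sept8 and Sept10 had. The epithelial list, with 2 of 4 genes above 0.2 FPKM in every tumor, summed to 14.2, 2.75 and 0.913 FPKM, of which Cdh1 had 13.7, 0.934 and 0.410, while its other 3 genes were highest in tumor 2, and Krt8 had no read in tumors 1 and 3. The part of these cells in the septin levels was not tested.

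The B-cell list, with all 5 genes above 0.2 FPKM in every tumor, summed to 56.2, 13.7 and 104 FPKM in tumors 1, 2 and 3, led by Cd79a at 23.1, 7.31 and 49.0. Fibroblast genes, 1 of 6 above that level in every tumor, summed to 10.5, 42.6 and 0.353 FPKM, led by Col1a1 at 1.63, 15.5 and 0.315, though Dcn, at 5.04, 3.27 and 0.00825, was highest in tumor 1, with no read of Pdgfra in tumor 3. Pancreatic acinar genes, 0 of 6 above it in every tumor, summed to 74.4, 374 and 0.438 FPKM, led by Ctrb1 at 33.9 and 198 FPKM in tumors 1 and 2 and without a read in tumor 3. Both lists were highest in tumor 2, where Sept2, Sept7, Sept8 and Sept10 were lowest. Endothelial genes, 1 of 5 above it in every tumor, summed to 13.6, 12.9 and 5.16 FPKM. Nearly all of this was Pecam1, at 12.2, 10.9 and 4.86 FPKM. The endothelial sum was highest in tumor 2 when median-of-ratios factors were used. Of the 5 genes, 3 were highest in tumor 1 as deposited, while Cdh5 and Emcn were highest in tumor 2. As deposited, the endothelial sum had the order of tumors of Sept9 and Sept11, as did the macrophage, erythroid, epithelial and dividing cell sums. Platelet genes, 1 of 6 above 0.2 FPKM in every tumor, summed to 2.11, 3.47 and 1.09 FPKM, led by Gp1ba at 0.742, 1.18 and 0.726, though Itga2b was higher in tumor 1 and Pf4 in tumor 2. Ppbp and Gp9 were at 0 reads in every tumor, Pf4 at 8, 24 and 0 reads and Itga2b at 153, 42 and 22 reads. The platelet, fibroblast and acinar sums and Pf4 had, as deposited, the order of tumors of Sept4 and Sept5, and the part of these cells in the septin levels was not tested either.

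**Figure D4:**
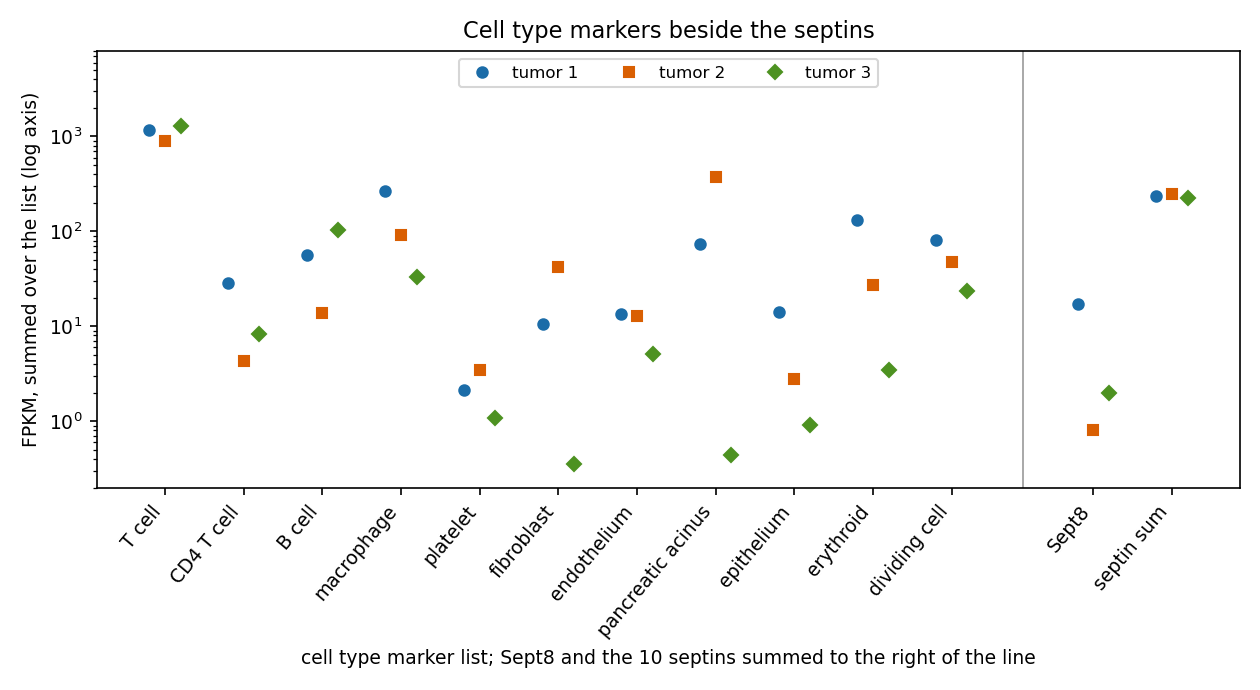
Summed FPKM of 11 cell type marker lists in each tumor on a log axis, with Sept8 and the sum of the 10 septins to the right of the line. The neuron and glia list is not among them. The macrophage, erythroid, CD4 and dividing cell lists are highest in tumor 1, as Sept8 is. The endothelial list is so as deposited, mainly through Pecam1, but not with median-of-ratios factors. The epithelial list is so through Cdh1 alone, whereas the septin sums as deposited differ by a ratio of 1.10.

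Genes with a pattern like that of Sept8 were looked for by the distance between the shares of the 3 tumors in a gene's summed FPKM, since Sept8 had the largest share of any septin in 1 tumor. Of 11196 other genes with a mean of at least 1 FPKM, 19 lay within a distance of 0.05, or 0.170%, and neither another septin nor any partner or marker gene was among them. Among the nearest were Chd9, a chromatin remodeler, Fam71b, Alox15, a lipoxygenase, and Qrfp, a neuropeptide gene. Chd9, the nearest to Sept8, was at 3.51, 0.134 and 0.397 FPKM in tumors 1, 2 and 3. A likeness over 3 libraries is a description and rests on few values.

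Of 24 genes whose products work with septins, 20 were above 0.2 FPKM in every tumor, beside 8 of the 10 septins and 36.7% of all genes. Cdc42 is the GTPase whose effectors, the CDC42EP proteins, bind septins, and at 81.6, 65.7 and 120 FPKM in tumors 1, 2 and 3 it led a role in which 4 of 6 genes were above that level. In the cytokinesis ring, where anillin ties septins to actin and myosin, all 7 genes were above it, and 6 of the 7 were highest in tumor 1, with 5 under median-of-ratios factors, where Racgap1 moved to tumor 2, and 7 when scaled to the CD3 genes. Of all genes with a mean of at least 1 FPKM, 50.6%, 36.9% and 70.9% were highest there in these 3 cases. Rhoa led them at 36.0, 18.2 and 28.2 FPKM, an order of tumors it shared with Sept2, Sept7, Sept8 and Sept10. Anln, the anillin gene, was at 2.51, 1.09 and 0.537 FPKM in tumors 1, 2 and 3, and Prc1, a bundler of spindle microtubules, was at 8.10, 3.65 and 1.89. These genes were lowest in tumor 3, as Sept9 and Sept11 were, unlike Sept2, Sept7, Sept8 and Sept10, which were lowest in tumor 2. Cit, a kinase of the late midbody, was the exception in the values as deposited, at 2.16, 2.75 and 0.622 FPKM.

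In the actomyosin cortex, on which septin filaments lie, all 8 genes were above 0.2 FPKM in every tumor, led by Actb at 1114, 1434 and 1409 FPKM in tumors 1, 2 and 3. Like Sept1 and Sept6, Actb was lowest in tumor 1 as deposited, though when scaled to the CD3 genes it was highest there, at 1345, 1318 and 1300 FPKM. Of the rhotekins and Map4, a microtubule protein that septins bind, only Map4 was above the level in every tumor, at 8.78, 6.09 and 7.06 FPKM. A highest tumor at least 2 times the lowest was found for 7 of the 17 partners with a mean of at least 1 FPKM, beside 5 of 8 septins and the 34.4% of all genes given above. Without tumor 1 it was found for 2 of 16 partners, beside the 15.8% of all genes. The median ratio was 1.88 for these 17 partners and 2.02 for the 8 septins, and 9 of the 17 were highest in tumor 1, from 8 with median-of-ratios factors to 13 when scaled to the CD3 genes, beside the same 50.6%, 36.9% and 70.9% of all genes.

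**Figure D5:**
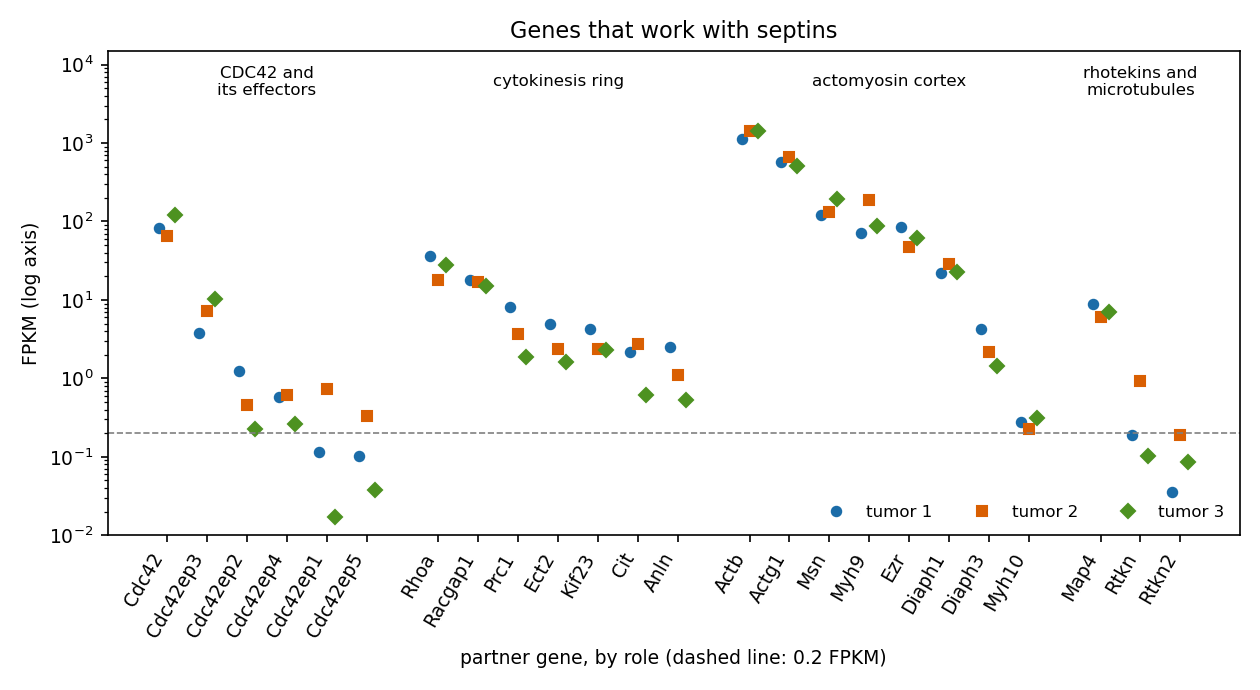
FPKM of 24 septin partner genes in each tumor on a log axis, ordered by mean within 4 roles, with a dashed line at 0.2 FPKM. Genes of the cytokinesis ring are highest in tumor 1 as deposited except Cit, with Racgap1 moving to tumor 2 under median-of-ratios factors, whereas the actomyosin cortex has genes highest in each of the 3 tumors.

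The 3 septins outside the choice were low. Sept3, a neuronal member of the SEPT3 group, was at 0.779, 1.51 and 0.349 FPKM in tumors 1, 2 and 3, with tumor 2 as the highest, unlike its group mate Sept9. Its annotated exon length did not give whole reads, so no reads are given for it. Sept12 and Sept14, septins of the testis, had no read in any tumor. For Sept14 a count of 0 allows up to 0.0562, 0.0910 and 0.0831 FPKM in tumors 1, 2 and 3.

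On the genome, 5 of the 13 septin genes overlapped another gene of the table. Whether reads were counted by strand is not given in the sources used here, so reads in an overlap cannot be told apart. Sept1 shared 70 bases with Zfp553 on the opposite strand, which was at 3.99, 5.16 and 3.84 FPKM, far below Sept1. Sept6 shared 660 bases with Gm15008 on the opposite strand, at 1.06, 0.229 and 1.15 FPKM. Sept9 contained Gm16045, Sept4 overlapped Gm11492 and Sept5 overlapped Gp1bb, the neighbor it is known to be transcribed into, and these genes were each at 0.0710 FPKM or less in every tumor.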

How the data were processed

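RNA-seq libraries of 3 Dnmt3b+/- PTCL were sequenced in paired-end mode. The labels and the methods name different Illumina instruments. After trimming, the authors mapped reads to mm10 by STAR, whose version is not given in the sources used here, kept those with a mapping quality of at least 50, and deposited linear FPKM per gene from the RNA-seq pipeline of SeqMonk. A gene with 0 reads carries the FPKM of 0.9 read, from which followed depths of 30726570, 18969988 and 20770928 reads for tumors 1, 2 and 3. Reads were recovered with merged exon lengths of GENCODE M21 for 34125 genes, of which 92.4% came within 0.05 of a whole number, or within 0.01 of 0.9, in all 3 tumors. No count model was fitted.

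Of repeated symbols, the entry with the highest mean was taken. The threshold was 0.2 FPKM, and ratios between tumors were counted for genes with a mean of at least 1 FPKM. Poisson intervals are exact at 95%. Named genes are all septins, in each partner role the gene with the highest mean and those with a ratio of at least 4, the highest gene of each marker list, the 5 genes most like Sept8, and overlapping genes. Some of these, and 1 of the marker lists, are not reported here. Other genes named here, such as Krt8, Ppbp, Gp9, Pf4, Itga2b, Pdgfra, Dcn, Cd68, Cd8a, Cd247, Racgap1 and Top2a, and the counts of septins highest in tumor 1, were chosen after their values were seen. The members and lists were chosen with earlier results of these data known. Alternatives were other scalings, thresholds, folds and added constants, repeated symbols summed, and each tumor left out. Of the steps, the recovery of depths and reads and the call of a ratio of at least 2 were tested on simulated data with counting error only. Tables were computed with pandas 2.3.3 in Python 3.11, intervals with SciPy 1.17.1 on NumPy 2.4.6, and plots were drawn with matplotlib 3.10.9.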

Additional observations from a re-analysis of the deposited data

How the results depend on the processing

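The number of septins with a highest tumor at least 2 times the lowest, 5 of 8 as given, is set here beside the share of all genes under the same setting, 34.4% as given. It was 3 with median-of-ratios factors (32.3%), 3 when 1 was added to each FPKM (23.7%), 8 at a fold of 1.5 (62.8%) and 1 at a fold of 4 (11.3%). It rose to 6 of 8 when scaled to the CD3 genes (47.4%) and to 6 of 9 with FPKM rescaled to sum to 1000000 (47.9%). With no filter on low values it was 7 of 10 (29.5%). With tumor 1, 2 or 3 left out it was 1 of 7, 3 and 5 (15.8%, 17.6% and 26.2%). For the partners, 7 of 17 as given, it was 12 at a fold of 1.5, 3 at a fold of 4 and 10 when scaled to the CD3 genes. It was 13 of 24 with no filter on low values (29.5%), and 2 of 16, 6 and 5 with tumor 1, 2 or 3 left out. It was 14 of 22 with FPKM rescaled to sum to 1000000 (47.9%), which changes both the ratios and the genes that pass the mean of 1. That rescaling also took the summed septin FPKM to 1138, since it multiplies every value, and moved the mean of each of the 10 septins. The shares of the 4 septin groups cannot move with a scaling. With tumor 1, 2 or 3 left out, the mean share of the SEPT2 group was 61.3%, 53.6% and 55.4%. That of the SEPT3 group was 15.0%, 18.7% and 19.1%, and that of the SEPT6 group 20.6%, 23.3% and 21.6%. For the SEPT7 group it was 3.11%, 4.48% and 3.81%. The means of Sept8, Sept10 and Sept11 without tumor 1 and of Sept5 without tumor 2 fell by more than 1.5 times. The numbers of septins and partners above the threshold, 8 and 20 as given (36.7% of all genes), stayed within 1.5 times under all alternatives run. They were 9 and 21 with FPKM rescaled to sum to 1000000 (55.8%) and 6 and 15 at a threshold of 1 FPKM (28.4%). Scaling to the CD3 genes was chosen after seeing the data. It shifted the median gene by 0.27 in tumor 1, -0.12 in tumor 2 and -0.12 in tumor 3 on the log2 scale, median-of-ratios factors by -0.14, 0.03 and 0.09. Under each scaling 6 septins were highest in tumor 1, and the ratio of Sept8 ranged from 18.6 to 27.6. Sept4 and Sept5 rest on at most 33 reads a tumor.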
